A study of Danio rerio with 5 samples.

Results

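Of the 5 RNA libraries made from zebrafish (Danio rerio) kidneys in this series, 2 held high levels of oocyte RNA. They were picked by 3 genes: a library was taken when the egg coat genes zp2.2 (ENSDARG00000105346) and zp3a.1 (ENSDARG00000042129) and the oocyte linker histone gene h1m (ENSDARG00000102892) each reached 50 CPM (counts per 1000000 counts assigned to genes). The libraries found were runx1 null 6 and wild type 2, 1 of each genotype, and they are called the ovary-bearing pools. The other pools were runx1 null 5, wild type 1 and wild type 3. The null fish were homozygous for an 8 bp deletion in runx1 (del8, allele hg96), and the wild type fish were their siblings. All fish were of the EK strain and about 2.5 months old, and RNA of 3 dissected kidneys was pooled for each library. The labels call the tissue adult kidney and do not give the sex of the fish or of a pool.

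A growing fish oocyte builds the egg coat from glycoproteins with a zona pellucida (ZP) domain, and stores RNA and protein that the embryo uses before its own genome is switched on. Granulosa and theca cells surround the oocyte as a follicle and make steroid hormones, while the yolk precursor vitellogenin is made in the liver under estrogen and carried to the oocyte by the blood. The adult zebrafish kidney is the site of blood formation, holds the nephrons and the steroid-making interrenal tissue, and lies along the body wall close to the gonads. RUNX1 is a transcription factor of blood stem cell formation.

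The genes that picked the pools were far from the threshold on both sides. zp2.2 stood at 525 CPM in null 6 and 117 CPM in wild type 2, against 0.132, 0.128 and 0.217 CPM in null 5, wild type 1 and wild type 3. zp3a.1 stood at 2088 CPM in null 6 and 302 CPM in wild type 2, against 1.12, 0.478 and 0.543 CPM in null 5, wild type 1 and wild type 3. h1m stood at 1933 CPM in null 6 and 259 CPM in wild type 2, against 1.22, 0.255 and 0.615 CPM in null 5, wild type 1 and wild type 3. The value nearest the threshold was 117 CPM of zp2.2 in wild type 2 on the upper side and 1.22 CPM of h1m in null 5 on the lower side. Because these values chose the pools, the levels of both sets of pools are given as a description, and no test was made between them. These are bulk libraries, so fewer cells of a type and less RNA per cell cannot be told apart.

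Depth did not follow the pools. Counts assigned to genes numbered 33752278 in null 6 and 30174956 in wild type 2, against 30354646 in null 5, 31369758 in wild type 1 and 27631376 in wild type 3. A count of 3, taken as the smallest level that can be read, was between 0.0889 and 0.109 CPM. Ratios between the sets of pools used it as a floor. The counts of genes without overlap and the list medians used all levels as they were, also those below it. The 20 genes with the most counts took 11.3% of the counts of null 6 and 26.4% of those of wild type 2, against 23.1% to 26.3% in the other pools. Reads that fell on no gene made up 5.32% of all reads in null 6 and 9.83% in wild type 2, against 11.3%, 11.5% and 13.2% in null 5, wild type 1 and wild type 3, and the 95% Wilson half-width, which covers counting error alone, did not exceed 0.00984 percentage points. The share was lowest in both ovary-bearing pools, and its part in the results was not tested.

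A gene was called higher when the lower of its levels in the ovary-bearing pools was at least 1 CPM and at least 4 times its highest level in the other pools. Of 19353 genes that reached 1 CPM in a library, 630 (3.26%) met this rule, and 38 (0.196%) met the mirror rule for lower genes. Without a minimum fold, 3467 genes (17.9%) were higher in both ovary-bearing pools than in every other pool, and 3976 (20.5%) were lower. The 630 genes took 21.2% of the assigned counts of null 6 and 3.07% of those of wild type 2, against 0.0830%, 0.0927% and 0.0486% in null 5, wild type 1 and wild type 3. The count of 630 became 2633 without wild type 2, and lay between 648 and 862 when any other library was left out. The 4-fold limit was looked at among genes of at least 10 CPM in both ovary-bearing pools. There the chromatin helicase gene HELLS was just inside with a ratio of 4.01, and NDEL1 and the germ cell gene DDX4 were just outside with 3.99 and 3.98.

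**Figure D1:**
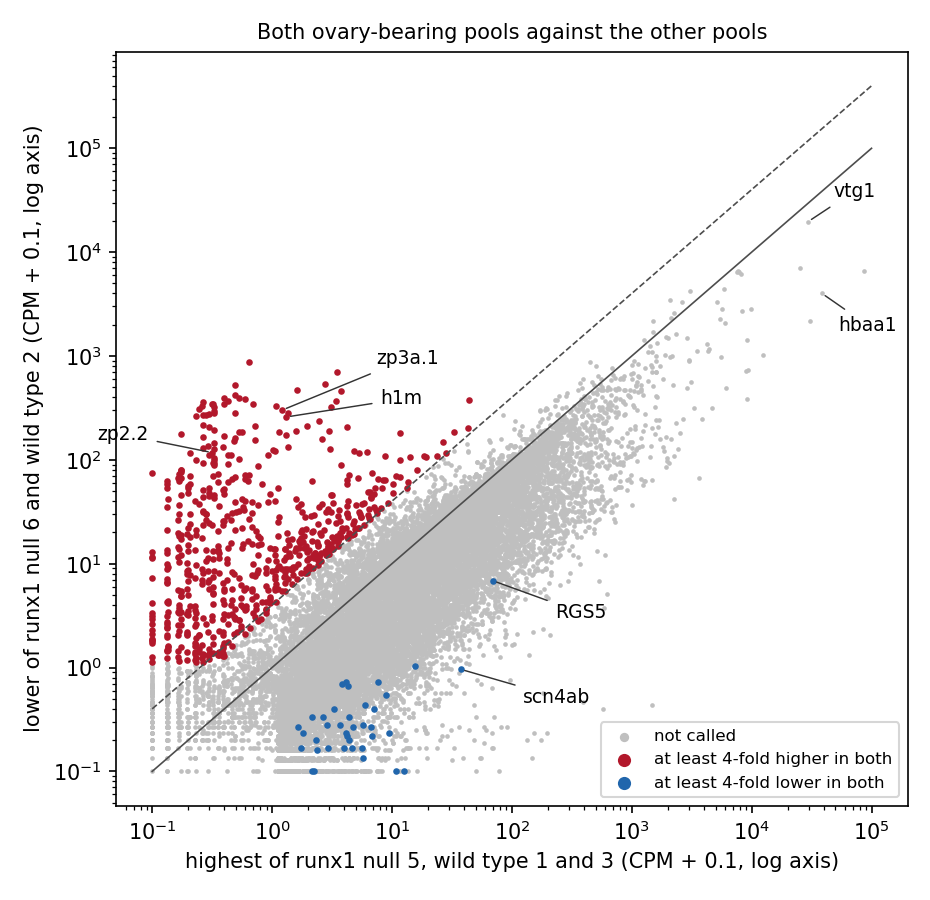
Each point is a gene; the x axis is its highest level in runx1 null 5, wild type 1 and wild type 3, and the y axis its lower level in runx1 null 6 and wild type 2, both as CPM + 0.1 on log axes. The solid line marks equal levels and the dashed line a 4-fold difference. The 630 genes called higher, in red, form a cloud that reaches over 200 CPM in both ovary-bearing pools at under 1 CPM in the others, and the 38 genes called lower, in blue, lie at low levels apart from RGS5 and scn4ab.

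Egg coat genes stood at 6.56 to 2088 CPM in the ovary-bearing pools and at 2.35 CPM or less in each other pool. Of 18 egg coat genes matched, 17 reached 1 CPM in a library and all 17 were called higher, beside 3.26% of all genes. They include zp2.2 and zp3a.1, whose calls were fixed by the choice of pools. Of the other 15, all were called, with a median difference of 8.30 on the log2 scale and a summed level of 8973 CPM in null 6 and 1370.0 CPM in wild type 2, against 6.13, 5.99 and 6.51 CPM in null 5, wild type 1 and wild type 3. zpd was the gene left, with at most 0.770 CPM in any library. The summed level of the list was 11585 CPM in null 6 and 1789 CPM in wild type 2, against 7.38, 6.60 and 7.27 CPM in null 5, wild type 1 and wild type 3. zp2l1 stood at 1283 CPM in null 6 and 215 CPM in wild type 2, against 0.165, 0.0638 and 0.145 CPM in null 5, wild type 1 and wild type 3. zp3b stood at 1671 CPM in null 6 and 238 CPM in wild type 2, against 1.28, 2.26 and 2.35 CPM in null 5, wild type 1 and wild type 3. No egg coat gene of these 17 overlapped between the sets of pools, and the median difference over the list was 9.23 on the log2 scale, beside -0.11 over all 19353 genes. Outside the list, and chosen after their values were seen, zpax1 and zpax4, which belong to another branch of the ZP gene family, stood at 4243 and 3503 CPM in null 6. In wild type 2 they stood at 543 and 458 CPM, and neither exceeded 3.69 CPM in another pool.

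Genes of oocyte identity and of the maternal store showed the same split. Of 35 matched genes, 29 were called higher, beside 3.26% of all genes, and the median difference was 6.91 on the log2 scale. Without h1m, which helped to pick the pools, 28 of 34 were called and the median difference was 6.82. buc, whose protein organises the Balbiani body of the young oocyte, stood at 1278 CPM in null 6 and 212 CPM in wild type 2, against 1.38, 1.85 and 0.615 CPM in null 5, wild type 1 and wild type 3. ZAR1, an RNA-binding protein gene of the oocyte, stood at 912 CPM in null 6 and 123 CPM in wild type 2, against 1.52, 4.75 and 2.64 CPM in null 5, wild type 1 and wild type 3. The transcription factor gene nanog, whose maternal product takes part in switching on the zebrafish embryonic genome, stood at 466 CPM in null 6 and 71.2 CPM in wild type 2, against 0.132, 0.542 and 0.181 CPM in null 5, wild type 1 and wild type 3. All 3 genes were high in null 6, intermediate in wild type 2 and low in the other 3 pools. gdf3, the maternal signal that patterns the early embryo together with Nodal, stood at 442 CPM in null 6 and 61.0 CPM in wild type 2, against 0.165, 0.191 and 0.253 CPM in null 5, wild type 1 and wild type 3.

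The oocyte's own signals and early transcription factors were lower in level but followed the same order. bmp15, a growth factor secreted by oocytes, stood at 124 CPM in null 6 and 21.8 CPM in wild type 2, against 0.461, 0.414 and 0.145 CPM in null 5, wild type 1 and wild type 3. GDF9, its partner, stood at 62.2 CPM in null 6 and 10.9 CPM in wild type 2, and at no more than 0.223 CPM in another pool. figla, a transcription factor that switches on egg coat genes, stood at 26.8 CPM in null 6 and 2.88 CPM in wild type 2, against 0, 0.128 and 0 CPM in null 5, wild type 1 and wild type 3. It was called higher, as were LHX8, npm2a, npm2b, foxr1, BTG4, MOS and WEE2.

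Not every gene of the list separated the pools. DNMT1, the maintenance DNA methyltransferase, stood at 695 CPM in null 6 and 119 CPM in wild type 2, against 31.0, 42.8 and 15.2 CPM in null 5, wild type 1 and wild type 3, which is higher in both ovary-bearing pools and short of 4-fold in wild type 2. YBX1, a general RNA-binding protein gene, was lower in them, at 648 CPM in null 6 and 800.0 CPM in wild type 2, against 991, 1121 and 953 CPM in null 5, wild type 1 and wild type 3. CNOT7, PGR, SOX3 and lhx8b were the other members not called, and the last 3 of these were at or below 1.16 CPM in each library.

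Within the genes called higher, 10 that bind, store or translate oocyte RNA were put together after their values were seen, so their count says nothing of its own. CPEB1, which holds stored messages silent until the oocyte matures, stood at 967 CPM in null 6 and 154 CPM in wild type 2, against 0.626, 0.223 and 0.253 CPM in null 5, wild type 1 and wild type 3. patl2, a translational repressor of oocytes, stood at 752 CPM in null 6 and 115 CPM in wild type 2, against 0.0659, 0.0956 and 0.109 CPM in null 5, wild type 1 and wild type 3. caprin2, an RNA granule protein gene, stood at 1203 CPM in null 6 and 172 CPM in wild type 2, against 1.22, 0.765 and 0.651 CPM in null 5, wild type 1 and wild type 3. The summed level of the 10 was 6370.3 CPM in null 6 and 948 CPM in wild type 2, against 8.50, 11.1 and 8.36 CPM in null 5, wild type 1 and wild type 3.

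The genes with the largest ratio between the sets of pools were mostly ones without a descriptive name. Among genes of at least 50 CPM in both ovary-bearing pools, the largest ratio of the lower ovary-bearing pool to the highest other pool was 2199, for zgc:171977, followed by wu:fi09b08 with 2135 and ENSDARG00000095486 with 2061. Of the 15 with the largest ratios, zp2l1 alone had a descriptive name. zgc:152652 had the highest level among them, 6585 CPM in null 6 and 867 CPM in wild type 2, against 0.428, 0.383 and 0.543 CPM in null 5, wild type 1 and wild type 3. Clone names and bare gene IDs made up 34.8% of the 630 genes and 45.4% of the 141 of them with at least 50 CPM in both pools, against 17.9% of all 19353 genes. Reads with more than 1 alignment were counted apart from the genes, so the counts of any near-identical copies are uncertain; whether these genes have copies was not tested.

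**Figure D2:**
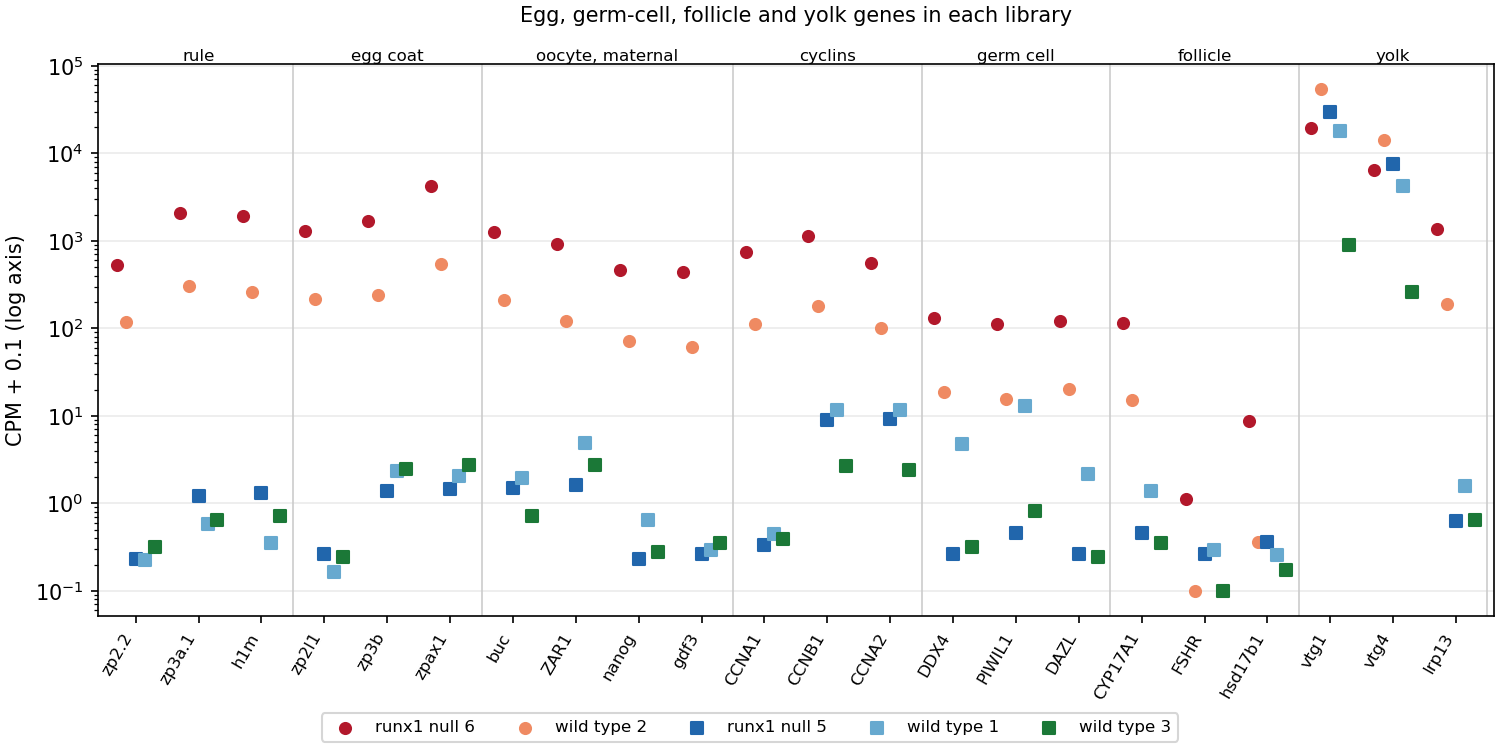
CPM + 0.1 on a log axis for 22 genes in each library, with the ovary-bearing pools as circles and the other pools as squares. Egg coat, oocyte and cyclin A1 genes lie at 61.0 CPM or more in both ovary-bearing pools and at 4.75 CPM or less in the others, germ cell genes lie closer because wild type 1 holds some, and the vitellogenin genes vtg1 and vtg4 do not separate the pools.

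Germ cell genes were also higher, but with a signal in wild type 1. Of 22 matched genes of germ cells and the piRNA pathway, which silences transposons in the germ line, 13 were called higher and 19 were higher in both ovary-bearing pools than in each other pool, beside 3.26% and 17.9% of all genes. DAZL, an RNA-binding protein gene of germ cells, stood at 121 CPM in null 6 and 19.98 CPM in wild type 2, against 0.165, 2.04 and 0.145 CPM in null 5, wild type 1 and wild type 3. DDX4, the vasa helicase gene, stood at 132 CPM in null 6 and 18.8 CPM in wild type 2, against 0.165, 4.72 and 0.217 CPM in null 5, wild type 1 and wild type 3. PIWIL1, a piRNA-binding protein gene, stood at 114 CPM in null 6 and 15.6 CPM in wild type 2, against 0.362, 12.8 and 0.724 CPM in null 5, wild type 1 and wild type 3. Wild type 1 was the highest of the other pools for each of these 3, and its PIWIL1 level was close to that of wild type 2. TDRD6 and tdrd7a, genes of germ granule proteins, likewise stood at 9.88 and 9.28 CPM in wild type 1. tdrkh, nanos1 and tdrd12 overlapped between the sets of pools. nanos1 was highest in null 5, at 7.05 CPM, against 3.70 CPM in null 6 and 0.829 CPM in wild type 2. tdrd12 stood at 3.10 CPM in null 5, above its 2.55 CPM in wild type 2.

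Genes of the meiotic chromosome axis did not separate the pools. Of 25 matched meiosis genes, 0 were called higher or lower and 3 of them were higher without overlap, and the median difference was -0.25 on the log2 scale, which became 0.33 without wild type 1 and 0.40 without wild type 2. SYCP3, a component of the synaptonemal complex, stood at 0.474 CPM in null 6 and 0.232 CPM in wild type 2, against 0.231, 3.95 and 0.832 CPM in null 5, wild type 1 and wild type 3. smc1b, a meiotic cohesin gene, stood at 1.45 CPM in null 6 and 0.0331 CPM in wild type 2, against 0.0988, 7.71 and 1.01 CPM in null 5, wild type 1 and wild type 3. hsf5, needed for sperm formation in zebrafish, stood at 0.207 CPM in null 6 and 0.0331 CPM in wild type 2, against 0.0329, 4.69 and 1.05 CPM in null 5, wild type 1 and wild type 3. Wild type 1 was the highest library for these 3, and null 6 and wild type 2 were at or below 1.45 CPM. Other genes of the list were highest in null 6. SYCP1, also of the synaptonemal complex, stood at 71.1 CPM in null 6 and 8.65 CPM in wild type 2. In null 5, wild type 1 and wild type 3 it stood at 4.48, 22.8 and 7.56 CPM. syce2 and stag3 were likewise highest in null 6, at 4.68 and 4.62 CPM.

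The 3 meiosis genes higher without overlap made up a smaller share than the 17.9% among all genes, and they are named for their values alone. spo11, which makes the DNA breaks that start recombination, stood at 12.1 CPM in null 6 and 2.52 CPM in wild type 2, against 0.132, 0.861 and 0.0362 CPM in null 5, wild type 1 and wild type 3. rad21l1, a meiotic cohesin gene, stood at 32.6 CPM in null 6 and 6.16 CPM in wild type 2, against 0.0659, 2.93 and 0.724 CPM in null 5, wild type 1 and wild type 3. PSMC3IP, a recombination cofactor gene, stood at 43.8 CPM in null 6 and 9.88 CPM in wild type 2, against 5.04, 4.78 and 3.87 CPM in null 5, wild type 1 and wild type 3. The testis list gave 2 of 26 genes called higher, odf3l2a and CCNA1, and none called lower, with 3 higher and 4 lower without overlap, beside 3.26% called higher and 17.9% higher and 20.5% lower without overlap among all genes. insl3, a Leydig cell hormone gene, stood at 2.14 CPM in wild type 1 and at or under 0.0362 CPM in every other library.

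Most matched genes of the follicle's somatic cells were at low levels. Of 28 granulosa and theca names, 15 were matched, and most of the rest were shared by several IDs. Of the 15 matched genes, 11 reached 1 CPM in a library. CYP17A1, a steroid enzyme gene of theca cells, alone of the 15 was called higher, beside 3.26% of all genes. Among IDs of the shared names, CYP11A1 ENSDARG00000002347 was also called higher, and FST ENSDARG00000057992 was called lower. Without a minimum fold, 5 of the 15 were higher in both ovary-bearing pools than in each other pool, beside 17.9% of all genes. Of these, hsd17b1 had 8 counts in wild type 2 and in null 5, and CYP19A1 had 9 in wild type 2 and in wild type 1. Their order there came from the library totals alone, so the 5 are not read as an excess over all genes. CYP17A1 stood at 116 CPM in null 6 and 15.01 CPM in wild type 2, against 0.362, 1.28 and 0.253 CPM in null 5, wild type 1 and wild type 3. Of the granulosa cell genes, 3 more are given here, hsd17b1, CYP19A1 and FSHR, and each was highest in null 6. Other members of the list went the other way. RSPO1, NR0B1 and NR5A2 were highest in wild type 2, at 8.12, 17.2 and 5.37 CPM there. RSPO1 and NR0B1 were higher in both ovary-bearing pools than in each other pool, and NR5A2 overlapped. hsd17b1, a granulosa cell enzyme gene in fish, stood at 8.65 CPM in null 6 and 0.265 CPM in wild type 2, against 0.264, 0.159 and 0.0724 CPM in null 5, wild type 1 and wild type 3. CYP19A1, the aromatase gene that marks ovarian granulosa cells, stood at 2.19 CPM in null 6 and 0.298 CPM in wild type 2, against 0.264, 0.287 and 0.145 CPM in null 5, wild type 1 and wild type 3. FSHR, the receptor for follicle-stimulating hormone, stood at 1.04 CPM in null 6 and 0 CPM in wild type 2, against 0.165, 0.191 and 0 CPM in null 5, wild type 1 and wild type 3. In wild type 2, hsd17b1, CYP19A1 and FSHR did not exceed 0.298 CPM, so these 3 granulosa markers were at or near the smallest readable level there. RSPO1, NR0B1 and NR5A2 were well above that level in wild type 2. The name of the pools rests on oocyte genes. gsdf, a somatic gene of both ovary and testis, stood at 5.48 CPM in null 6 and 0.895 CPM in wild type 2, against 0.527, 4.02 and 0.290 CPM in null 5, wild type 1 and wild type 3, and amh, another, was highest in wild type 1, at 3.76 CPM.

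Steroid enzyme genes that the kidney's interrenal tissue also uses differed by copy. Of the pair of IDs with the symbol CYP11A1, which encodes the enzyme that opens steroid synthesis, ENSDARG00000002347 stood at 183 CPM in null 6 and 27.6 CPM in wild type 2, against 3.43, 6.34 and 0 CPM in null 5, wild type 1 and wild type 3. The other, ENSDARG00000092696, stood at 2.49 CPM in null 6 and 0.0663 CPM in wild type 2, against 26.3, 68.2 and 0.109 CPM in null 5, wild type 1 and wild type 3. The first copy was thus higher in the ovary-bearing pools, and the other was higher in null 5 and wild type 1. Of the 15 matched genes of the interrenal list, hsd3b2 alone was called higher, beside 3.26% of all genes. It stood at 48.5 CPM in null 6 and 4.04 CPM in wild type 2, against 0, 0.0319 and 0.0362 CPM in null 5, wild type 1 and wild type 3. STAR, the cholesterol carrier gene of steroid-making cells, stood at 31.8 CPM in null 6 and 0.331 CPM in wild type 2, against 411, 1474 and 0.398 CPM in null 5, wild type 1 and wild type 3. cyp21a2, a cortisol-synthesis enzyme gene, stood at 5.84 CPM in null 6 and 0.133 CPM in wild type 2, against 66.7, 197 and 0.109 CPM in null 5, wild type 1 and wild type 3. STAR and cyp21a2 were highest in wild type 1 and low in wild type 2 and wild type 3. The summed level of the 15 interrenal and chromaffin genes was 117 CPM in null 6 and 12.7 CPM in wild type 2, against 601 CPM in null 5, 1997 CPM in wild type 1 and 9.66 CPM in wild type 3.

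Cell cycle and DNA replication genes were higher in the ovary-bearing pools as a group. Of 37 matched genes, 33 were higher in both than in each other pool and 10 were called higher, beside 17.9% and 3.26% of all genes, with a median difference of 3.03 on the log2 scale, or 1.87 without null 6. CCNB1, the cyclin of the maturation-promoting factor, stood at 1141 CPM in null 6 and 181 CPM in wild type 2, against 8.80, 11.6 and 2.57 CPM in null 5, wild type 1 and wild type 3. CCNB2 stood at 731 CPM in null 6 and 132 CPM in wild type 2, against 1.25, 1.12 and 0.398 CPM in null 5, wild type 1 and wild type 3. birc5b, a survivin gene of the chromosome passenger complex, stood at 172 CPM in null 6 and 29.9 CPM in wild type 2, against 0.0329, 0 and 0.109 CPM in null 5, wild type 1 and wild type 3. All 3 were called higher and had no overlap. PCNA, the replication clamp gene, was not called and stood at 419 CPM in null 6 and 114 CPM in wild type 2, against 78.1, 102 and 57.4 CPM in null 5, wild type 1 and wild type 3. The genes called were CCNA1, CCNA2, CCNB1, CCNB2, CCNE1, aurka, AURKB, plk1, CDC20 and birc5b, all regulators of mitosis or of cell cycle entry. No matched MCM helicase gene was among them. The names mcm6 and rrm2 of the list were not matched, because several IDs share each symbol. MCM6 ENSDARG00000033231 and RRM2 ENSDARG00000078069 were called higher, and the other ID of each was not. mcm3l, outside the list, was also called higher.

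Some replication genes came in pairs of which only 1 followed the pools. These pairs were chosen after their values were seen. Reads with more than 1 alignment, which close copies can give, were counted for neither gene of a pair. mcm3l stood at 467 CPM in null 6 and 67.3 CPM in wild type 2, against 0, 0.0638 and 0 CPM in null 5, wild type 1 and wild type 3, whereas MCM3, another gene of the same helicase subunit, stood at 4.86 CPM in null 6 and 5.50 CPM in wild type 2, against 9.22, 15.3 and 1.70 CPM in null 5, wild type 1 and wild type 3. Of the pair of IDs named MCM6, ENSDARG00000033231 stood at 397 CPM in null 6 and 62.0 CPM in wild type 2, against 0.659, 1.53 and 2.06 CPM in null 5, wild type 1 and wild type 3. ENSDARG00000057683 stood at 7.32 CPM in null 6 and 8.02 CPM in wild type 2, against 15.2, 24.9 and 2.75 CPM in null 5, wild type 1 and wild type 3. For MCM3 and for ENSDARG00000057683 the levels overlapped between the sets of pools. CCNA1, the germ-line cyclin A, stood at 741 CPM in null 6 and 111 CPM in wild type 2, against 0.231, 0.351 and 0.290 CPM in null 5, wild type 1 and wild type 3, and CCNA2, the cyclin A of dividing body cells, was also called higher, at 556 CPM in null 6 and 101 CPM in wild type 2, against 9.19, 11.7 and 2.28 CPM in null 5, wild type 1 and wild type 3.

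Yolk genes split by what they do. vtg1, the most abundant vitellogenin gene here, stood at 19631 CPM in null 6 and 54469.8 CPM in wild type 2, against 29497, 18239 and 903 CPM in null 5, wild type 1 and wild type 3. All 7 vitellogenin genes were highest in wild type 2 and lowest in wild type 3, and null 5 was above null 6 for each of them. lrp13, a receptor of the lipoprotein receptor family found in fish ovaries, alone of 19 yolk genes was called higher, beside 3.26% of all genes. Of the 19, 7 were higher in both ovary-bearing pools without overlap, beside 17.9% of all genes. lrp13 stood at 1359 CPM in null 6 and 191 CPM in wild type 2, against 0.527, 1.498 and 0.543 CPM in null 5, wild type 1 and wild type 3. VLDLR, which encodes the vitellogenin receptor of fish oocytes, stood at 614 CPM in null 6 and 92.7 CPM in wild type 2, against 27.3, 4.78 and 1.81 CPM in null 5, wild type 1 and wild type 3. Receptor and precursor thus had different orders over the libraries: the receptor genes were highest in null 6, and the precursor genes in wild type 2.

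Liver genes had nearly the same order as the vitellogenins. Of 20 matched liver genes, 0 were called and 10 were higher in both ovary-bearing pools without overlap, beside 17.9% of all genes, with a median difference of 2.26 on the log2 scale. Without wild type 3, the lowest library, that median was 0.80. Their summed level was 16736 CPM in null 6 and 25949 CPM in wild type 2, against 14201 CPM in null 5, 9008 CPM in wild type 1 and 722 CPM in wild type 3. fabp10a, a liver fatty acid binding protein gene, stood at 693 CPM in null 6 and 1498 CPM in wild type 2, against 1033, 222 and 20.2 CPM in null 5, wild type 1 and wild type 3. ESR1, an estrogen receptor gene that drives vitellogenin in the fish liver, stood at 24.6 CPM in null 6 and 69.4 CPM in wild type 2, against 16.5, 15.6 and 2.68 CPM in null 5, wild type 1 and wild type 3. The part of liver RNA in the vitellogenin levels was not tested.

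**Figure D3:**
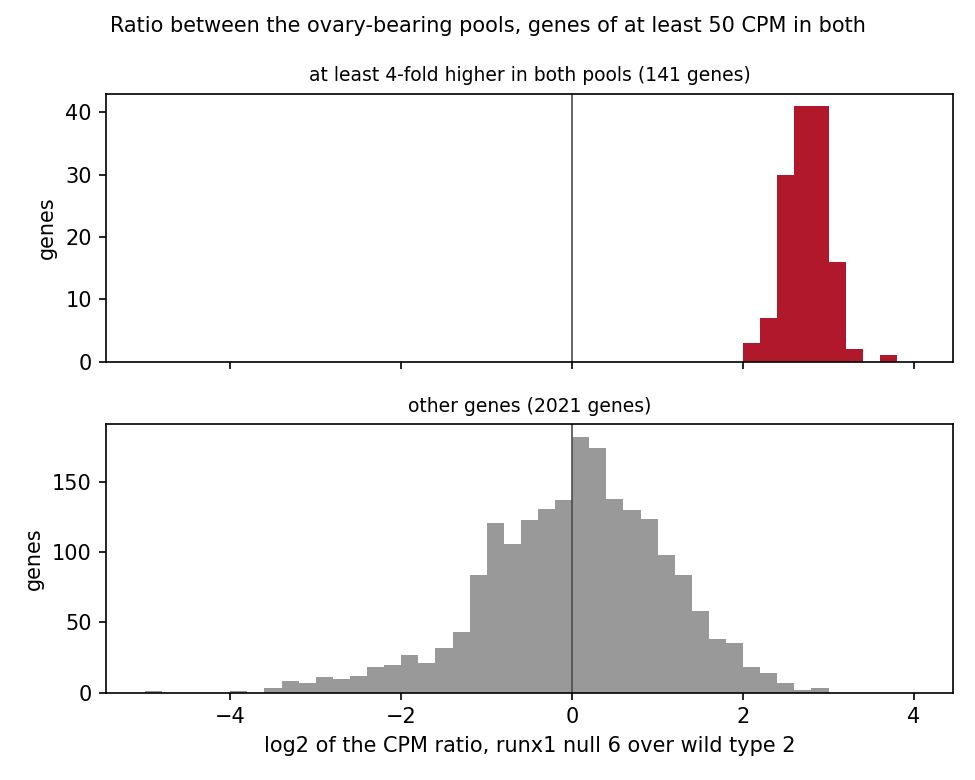
Histograms of the log2 ratio of CPM in runx1 null 6 over wild type 2 for genes of at least 50 CPM in both libraries, with 141 genes called higher above and 2021 other genes below. The called genes form a narrow peak around 2.73 with an SD of 0.25, and the other genes spread around 0.11 with an SD of 1.07.

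The ovary-bearing pools differed in how much of this RNA they held, by a factor that varied little among the abundant called genes. Among the 141 genes called higher with at least 50 CPM in both pools, all 141 were higher in null 6 than in wild type 2. The median ratio was 6.66, the middle of the distribution ran from 6.002 to 7.52 (lower and upper quartile), and the extremes were 4.05 and 12.9. On the log2 scale the median was 2.73 with an SD over genes of 0.25, against 0.11 and 1.07 for the 2021 other genes of that level. Over all 630 called genes the spread was wider, with a log2 median of 2.62, an SD of 0.66 and ratios from 0.0690 to 14.4. The SD describes the spread over genes of these libraries, with 1 library on each side and no test. Among called genes, the median was 6.47 for 17 egg coat, 6.56 for 29 oocyte identity, 6.33 for 13 germ cell and 5.58 for 10 cell cycle genes. These genes passed the 4-fold rule in the same pools and include those that picked the pools, and some lists share genes. Members with more than 3 counts in both pools, called or not, gave 6.42 for egg coat, 6.30 for oocyte identity and 6.14 for germ cell genes. In the same way, cell cycle genes gave 4.84, meiosis genes 2.98, testis genes 2.36, and granulosa and theca genes 1.68.

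The extremes of this ratio were named by rule. The largest were si:dkey-172k15.17 with 12.9, ENSDARG00000095486 with 9.67, zgc:173770 with 9.46, si:ch211-199m8.2 with 9.07 and ENSDARG00000116512 with 9.01. The smallest were gbgt1l4 with 4.05, HELLS with 4.28, zp2.2 with 4.47, zpax2 with 4.82 and mkrn4 with 4.87. Within the egg coat list the ratio ran between 1.66 for zp2.5, which stood at 22.5 CPM in null 6 and 13.6 CPM in wild type 2, against 0.0329, 0.0956 and 0.181 CPM in null 5, wild type 1 and wild type 3, and 13.9 for zpcx, which stood at 106 CPM in null 6 and 7.66 CPM in wild type 2, against 0, 0.0956 and 0.109 CPM in null 5, wild type 1 and wild type 3. Both were below 50 CPM in wild type 2. Over all 630 genes, 620 were higher in null 6, and the 10 exceptions included 3 ion transport genes described further on.

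Blood genes had the opposite order within the pair. The median ratio of null 6 to wild type 2 was 0.144 over 16 erythroid genes, 0.146 over 11 thrombocyte genes, 0.182 over 15 neutrophil genes and 0.221 over 17 macrophage genes. hbaa1, an adult alpha globin gene, stood at 4019.8 CPM in null 6 and 19936 CPM in wild type 2, against 30232, 24731 and 38404 CPM in null 5, wild type 1 and wild type 3. gata1a, the erythroid transcription factor gene, stood at 41.3 CPM in null 6 and 269.7 CPM in wild type 2, against 271, 662 and 511 CPM in null 5, wild type 1 and wild type 3. npsn, a neutrophil enzyme gene, stood at 12.1 CPM in null 6 and 190.1 CPM in wild type 2, against 89.2, 596 and 28.3 CPM in null 5, wild type 1 and wild type 3. Null 6 was the lowest library for all 3, whereas wild type 2 lay inside or near the range of the other pools.

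Null 6 was also the lowest library for these 3 genes when the counts taken by the genes called higher were left out. With the 630 genes left out of the totals, hbaa1 stood at 5103 CPM in null 6 and 20568 CPM in wild type 2, against 30258, 24754 and 38423 CPM in null 5, wild type 1 and wild type 3. gata1a then stood at 52.4 CPM in null 6 and 278 CPM in wild type 2, against 271 CPM in null 5, so wild type 2 and null 5 changed places. Of the erythroid list, 0 of 16 genes were called and 5 were lower in both ovary-bearing pools without overlap, beside 20.5% of all genes. Without overlap, 2 of 11 thrombocyte genes, 4 of 15 neutrophil genes, 0 of 17 macrophage genes, 0 of 13 B cell genes and 4 of 16 blood progenitor genes were lower, and none of these lists had a gene called. These shares lie near or below that of all genes. Because null 6 differs from wild type 2 in both genotype and level of oocyte RNA, these cannot be told apart in the pair.

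**Figure D4:**
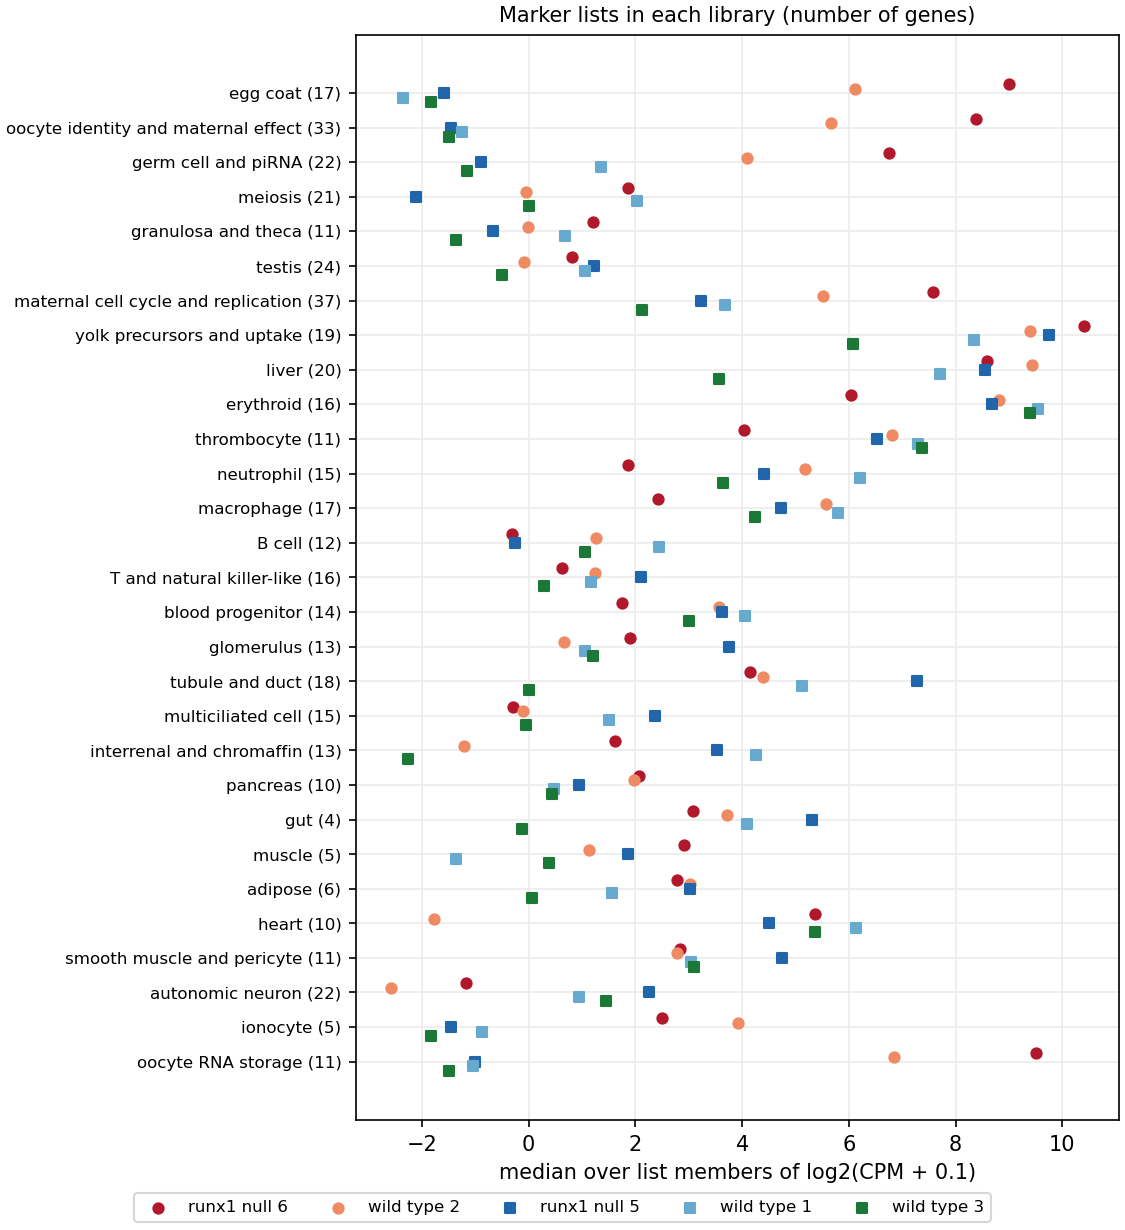
Median over the members of each list of log2(CPM + 0.1) in each library, with ovary-bearing pools as circles and the other pools as squares and the number of members that reached 1 CPM in brackets. The egg coat, oocyte and germ cell lists separate the circles from the squares, null 6 is lowest for the erythroid, thrombocyte, neutrophil and macrophage lists, and wild type 2 is lowest for the heart list.

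Genes lower in the ovary-bearing pools were few and at low levels. Of the 38 called lower, 11 belonged to a list of 25 matched genes of autonomic neurons, beside 0.196% of all genes called lower. The list was written after these values were seen, so the count is a description and says nothing of its own. Among the 11 were PHOX2A, CHRNA3, vamp2, MAP1B, RAB3C, VSNL1, scg2b, pcsk1nl and INSM2. PHOX2A, which specifies autonomic neurons, stood at 0.207 CPM in null 6 and 0.0994 CPM in wild type 2, against 2.17, 1.75 and 2.21 CPM in null 5, wild type 1 and wild type 3. CHRNA3, a nicotinic acetylcholine receptor subunit gene of autonomic ganglia, stood at 0.207 CPM in null 6 and 0.0331 CPM in wild type 2, against 5.04, 2.01 and 5.61 CPM in null 5, wild type 1 and wild type 3. MAP1B, a protein gene of axon microtubules, stood at 0.385 CPM in null 6 and 0.133 CPM in wild type 2, against 9.26, 7.17 and 4.42 CPM in null 5, wild type 1 and wild type 3. Both ovary-bearing pools were at or under 0.385 CPM for these 3, and each other pool was at or above 1.75 CPM.

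The neuron genes did not all behave so. Of the 25, 16 were lower in both ovary-bearing pools without overlap, beside 20.5% of all genes. CHAT, the enzyme gene of acetylcholine synthesis, stood at 0.7999 CPM in null 6 and 0 CPM in wild type 2, against 10.28, 0.159 and 16.2 CPM in null 5, wild type 1 and wild type 3, so wild type 1 was below null 6. UCHL1, a ubiquitin hydrolase gene used as a neuron marker, was called higher, at 655 CPM in null 6 and 108 CPM in wild type 2, against 8.73, 1.88 and 4.42 CPM in null 5, wild type 1 and wild type 3, and its ratio of null 6 to wild type 2 was 6.08. The count of 38 lower genes became 1492 without wild type 2, 237 without null 6, and 133 without wild type 1 or without wild type 3.

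Smooth muscle and pericyte genes gave the most abundant lower gene. Among genes of at least 50 CPM in each of the other pools, RGS5, a pericyte and smooth muscle signalling gene, alone was past 4-fold, at 7.02 CPM in null 6 and 6.76 CPM in wild type 2, against 69.2, 60.6 and 53.0 CPM in null 5, wild type 1 and wild type 3. acta2, smooth muscle actin, stood at 27.5 CPM in null 6 and 16.2 CPM in wild type 2, against 165, 72.5 and 190.2 CPM in null 5, wild type 1 and wild type 3. CAV1, a membrane caveolae gene, stood at 23.9 CPM in null 6 and 21.5 CPM in wild type 2, against 130.0, 52.6 and 84.7 CPM in null 5, wild type 1 and wild type 3. All 3 were lower in both ovary-bearing pools without overlap. The other genes named by the same rule, krt15, adm2a, wnk4b, drll.1, obscnb, PLPP3 and hprt1l, had ratios of the lowest other pool to the higher ovary-bearing pool between 1.91 and 2.82. Of the 12 genes of this list, also written after the values were seen, 5 were lower without overlap, beside 20.5% of all genes, among them PDGFRB, a pericyte receptor gene, with 7.999 CPM in null 6 against 8.13 CPM in wild type 1, while NOTCH3 overlapped.

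A small group of ion transport genes was higher in the ovary-bearing pools with wild type 2 at or above null 6. slc9a3.2, a sodium-proton exchanger gene of zebrafish skin and gill ionocytes, stood at 3.91 CPM in null 6 and 56.7 CPM in wild type 2, against 0.264, 0.446 and 0.0724 CPM in null 5, wild type 1 and wild type 3. atp1a1a.5, a sodium pump subunit gene, stood at 6.07 CPM in null 6 and 15.01 CPM in wild type 2, against 0.395, 0.446 and 0.290 CPM in null 5, wild type 1 and wild type 3. slc12a10.3, of the sodium chloride cotransporter family, stood at 10.5 CPM in null 6 and 10.8 CPM in wild type 2, against 0.0329, 0.128 and 0.181 CPM in null 5, wild type 1 and wild type 3. These were the only members called of 12 matched ionocyte genes, beside 3.26% of all genes called higher. The list was chosen after their values were seen, so the count says nothing of its own, and 5 of the 12 reached 1 CPM in a library. foxi3a, foxi3b and GCM2, which specify ionocytes, were at or below 0.622 CPM in every library. For slc9a3.2, atp1a1a.5 and slc12a10.3 the ratios of null 6 to wild type 2 were 0.0690, 0.405 and 0.965. These lie outside the range of 4.05 to 12.9 of the abundant called genes.

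Heart genes separated wild type 2 from the rest. MYL7, a myosin light chain gene of heart muscle, stood at 161 CPM in null 6 and 0.365 CPM in wild type 2, against 173, 309.8 and 389 CPM in null 5, wild type 1 and wild type 3. myh6, the atrial myosin heavy chain gene, stood at 238 CPM in null 6 and 0.298 CPM in wild type 2, against 219, 387 and 578 CPM in null 5, wild type 1 and wild type 3. Of 10 heart genes, in a list written after the values were seen, the summed level was 721 CPM in null 6 and 2.52 CPM in wild type 2, against 595, 1208 and 1370 CPM in null 5, wild type 1 and wild type 3. Null 6 lay inside the range of the other pools, and wild type 2 was below every other library.

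**Figure D5:**
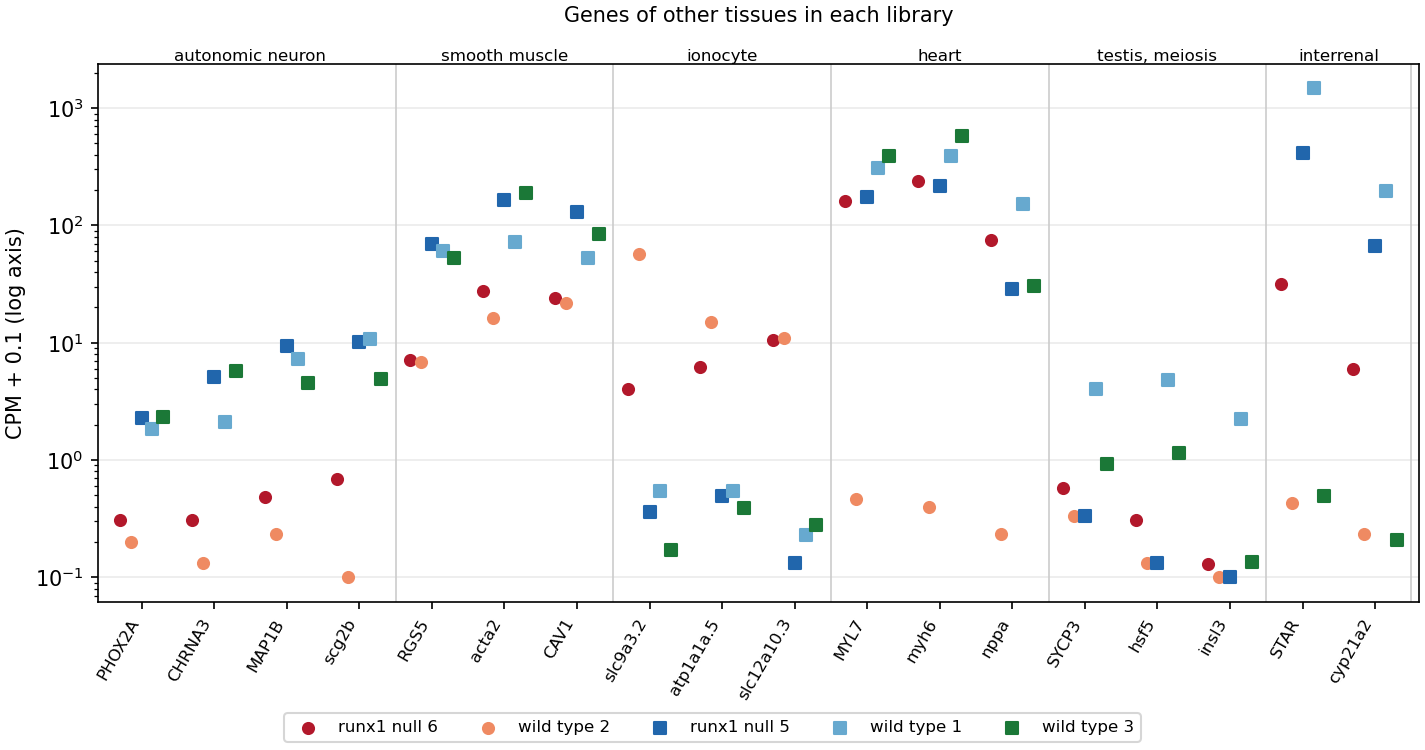
CPM + 0.1 on a log axis in each library for genes of autonomic neurons, smooth muscle, ionocytes, heart, testis and meiosis, and interrenal tissue, with the ovary-bearing pools as circles and the other pools as squares. The neuron and smooth muscle genes shown are lower in both ovary-bearing pools, and the ionocyte genes shown are higher. They were picked after their values were seen, and not all members of their lists do so. The heart genes shown are at 0.365 CPM or less in wild type 2 alone, and SYCP3, hsf5 and insl3 are highest in wild type 1.

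The genotype comparison, runx1 null over wild type, was the only tested contrast, and its groups come from the labels. edgeR's quasi-likelihood test with Benjamini-Hochberg adjustment called 0 of 20386 genes (0%), with a smallest adjusted p of 0.612 and 890 genes at an unadjusted p under 0.05. RUNX1 stood at 1.66 CPM in null 6 and 2.98 CPM in wild type 2, against 6.06, 4.43 and 3.15 CPM in null 5, wild type 1 and wild type 3, and its log2 fold change was 0.09 (SE 0.76, adjusted p = 0.963 in edgeR), and -1.14 without null 5. An 8 bp deletion need not lower the RNA, so this level does not check the labels. DESeq2's Wald test called 81 genes (0.397%), 29 higher and 52 lower in the null libraries. Of the list members, 2 B cell genes and 1 thrombocyte gene were called lower, and 1 glomerulus gene and 1 tubule and duct gene higher. None of the 630 genes called higher in the ovary-bearing pools was among the 81, and 195 of the 630 had no adjusted p in DESeq2. The 630 were picked as high in 1 library of each genotype and low in the rest, which sets a wide spread within each genotype. Their absence from the calls therefore says nothing about genotype.

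The genes called higher in the ovary-bearing pools entered this contrast with large estimates, and the marker genes with large errors. They were chosen through the split of the pools, which the fits with a pool covariate and without the pools also use, so their values are a description. The log2 fold change of zp3a.1 was 3.23 (SE 3.21, adjusted p = 0.670) and that of h1m was 3.34 (SE 3.22, adjusted p = 0.663), in edgeR with 2 null and 3 wild type pools. The median over the 630 genes was 2.95, against 0.24 over all genes tested. With membership in the ovary-bearing pools as a covariate, the median of the 630 was 1.47. Without both ovary-bearing pools, which leaves null 5 against wild type 1 and 3, 350 of the 630 genes could be tested and their median was 0.24. Without null 6 the estimates of zp3a.1 and h1m turned to -6.62 and -6.28, and without wild type 2 they were 11.03 and 11.13. edgeR called 0 genes in each of these fits, with 1834 genes at an unadjusted p under 0.05 with the covariate and 1749 without the pools.

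Cell cycle and erythroid genes were followed through the same fits. PCNA gave a log2 fold change of 1.40 (SE 0.76, edgeR adjusted p = 0.612) over all libraries and -0.05 without both ovary-bearing pools, and -0.25 without null 6 alone. The median over the 37 cell cycle genes was 2.24 over all libraries, 0.94 with the covariate and 0.05 without both pools. gata1a gave -1.65 (SE 0.88, edgeR adjusted p = 0.612) over all libraries and -1.15 without both pools. The median over the 16 erythroid genes was -1.33, -1.59 with the covariate and -0.70 without both pools, so its sign was the same in all 3 fits. These fits share libraries and the last has 1 null pool, so the shared sign is a description. None of these genes passed the test in edgeR.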

How the data were processed

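Kidney RNA of 3 wild type and 2 runx1 null pools was sequenced, and the authors deposited 1 table of whole-number read counts per gene for each library, not normalized. Libraries were paired-end TruSeq RNA v2, per the labels' protocols. The submitters' processing notes name HISAT2 2.2.1.0, HTSeq 0.11.4, DESeq2 and the build GRCz11. The annotation release and the strand setting are not given in the sources used here, so counts of overlapping and antisense genes are uncertain. Each table holds 32520 gene IDs and 5 counts of reads given to no gene, which were left out of totals and tests. Genes received between 60.6% and 71.9% of all reads.

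Depth was 27631376 to 33752278 assigned counts per library. CPM was computed over these totals, log2 values used a pseudocount of 0.1 CPM, and a count of 3 was the floor of every ratio. A list's median difference is that of the mean log2 of the ovary-bearing pools minus the mean log2 of the other pools, over members of at least 1 CPM in a library. Symbols came from a table of gene IDs, which names 29201 of the 32520. Of 541 names in 25 lists, 429 were used, 404 by symbol, 20 by the name without its copy letter and 5 by a synonym. Another 48 were shared by several IDs, 63 had no match and 1 repeated another name. Besides these 541, 2 names were left out as not markers of their list, and 4 endocrine or progenitor genes were left out of the pancreas counts and kpna7 out of the RNA storage genes. Sequences and coordinates were not used here.

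The pools, the 25 lists and the tests were chosen with earlier results of these data known, and 5 more lists were chosen after the values were seen. Genes named in the text are the 3 of the rule, the most abundant and the called members of each list, the 15 largest and 10 smallest ratios between the sets of pools, the 5 largest and 5 smallest ratios between the ovary-bearing pools, and RUNX1. Not all that qualify are printed, and other genes, such as the copies of replication genes, were chosen after their values were seen.

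The genotypes were compared with edgeR 4.0.16 in R 4.3.3 (filterByExpr with minimum count 10 and minimum total 15, TMM factors between 0.920 and 1.09, robust quasi-likelihood test, two-sided, Benjamini-Hochberg adjustment, threshold 0.05). The SE is the size of the log2 fold change over the square root of F. Groups came from the titles. The labels do not say whether pools came from separate clutches or days, so p-values measure the spread between these pools. Alternatives were DESeq2 1.42.0, other scalings, filters and folds, a covariate, and leaving out libraries. Both procedures were run on simulated counts with less spread between libraries than these data have. Those runs do not show how often the test would find a difference here. Tables and figures used pandas 2.3.3 and matplotlib 3.10.9 under Python 3.11.15.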

Additional observations from a re-analysis of the deposited data

Results flagged for a closer look

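Of 25 lists screened, the gut list and 7 others had a median difference of opposite sign in the ovary-bearing pair and outside it. The pair is null 6 minus wild type 2, and it was set against null 5 minus each of wild type 1 and wild type 3. This is a sign pattern over 5 libraries, and the difference between the pairs was not tested. Such a pattern can arise without any effect of genotype, so the number of lists says nothing of its own. Each value is the median level of the list in the null library minus that in the wild type library, on the log2 scale. The meiosis list stood at 1.91 on the log2 scale in the ovary-bearing pair, against -4.14 and -2.12 for null 5 minus wild type 1 and minus wild type 3, and wild type 1 had the highest levels of SYCP3, smc1b and hsf5. The liver list stood at -0.85 in the ovary-bearing pair, against 0.85 for null 5 minus wild type 1 and 4.99 for null 5 minus wild type 3. The tubule and duct list stood at -0.23, against 2.15 for null 5 minus wild type 1 and 7.27 for null 5 minus wild type 3. The gut list stood at -0.64 in the ovary-bearing pair, against 1.23 for null 5 minus wild type 1 and 5.44 for null 5 minus wild type 3. The median of the per-gene differences gives the gut list, with 4 genes, 0.29 in the ovary-bearing pair, against 1.71 for null 5 minus wild type 1 and 5.07 for null 5 minus wild type 3, so its sign does not differ on that measure. For the other 7 lists the signs were the same on both measures. In the tubule and gut lists null 5 had the highest and wild type 3 the lowest level.

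The adipose list stood at -0.25 in the ovary-bearing pair (-1.34 as the median of the per-gene differences), against 1.45 for null 5 minus wild type 1 and 2.96 for null 5 minus wild type 3. In the same order, the ovary-bearing pair, null 5 minus wild type 1 and null 5 minus wild type 3 gave -0.20, 0.86 and 2.41 for the multiciliated cell list. For that list the median of the per-gene differences was only -0.045 in the ovary-bearing pair. The same differences of list medians were -0.62, 0.94 and 1.81 for the T and natural killer-like list. They were -1.72, 0.67 and 1.12 for the list of RUNX and GATA2 genes.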

How the results depend on the processing

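The count of 630 genes higher in the ovary-bearing pools became 703 with TMM scaling and 701 with DESeq2 size factors, 1075 at 2-fold, 432 at 8-fold, 741 with no minimum level and 384 with a minimum of 10 CPM, and lay between 648 and 2633 when 1 library was left out. All 630 were among the 703, and 629 among the 701. The count of 38 lower genes became 236 at 2-fold, 6 at 8-fold, 64 with no minimum and 2 with a minimum of 10 CPM, and lay between 52 and 1492 with 1 library left out. The rule sets the lowest level of one set of pools against the highest of the other. Leaving out any library can therefore only keep or raise each count. The median of all genes, ovary-bearing minus other pools, was -0.11 on CPM, -0.03 with TMM scaling and 0.07 with the 630 genes left out of the totals. No list's median changed sign between these scalings, but some did with 1 library left out. Without null 6, the medians turned from -1.30 to 0.12 for neutrophil, -0.75 to 0.46 for macrophage and -0.89 to 0.40 for B cell genes. Without wild type 3, they turned from 0.20 to -1.53 for tubule and duct and from 1.14 to -0.28 for gut genes.

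Genotype calls stayed at 0 under every edgeR fit and were 81 with the DESeq2 Wald test. With 1 library left out, the log2 fold change of RUNX1 lay between -1.14 (without null 5) and 0.78, that of vtg1 between -0.66 and 1.46 (without wild type 2), and, all lowest without null 6, that of zp2.2 between -8.31 and 3.57, zp3a.1 between -6.62 and 11.03, h1m between -6.28 and 11.13 and PCNA between -0.25 and 2.13. vtg1, at -0.09 over all libraries, was also 0.19 without null 6, 0.47 with the covariate and 1.68 without both ovary-bearing pools. PCNA was -0.0504 without both. zp2.2 could not be tested without both pools or without wild type 2. The cause of these changes was not tested. No paired analysis was possible because null and wild type pools carry different replicate numbers. Single levels under the floor of 3 counts were not read, but they entered the counts of genes without overlap and the list medians.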

Other observations

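Genes of other organs next to the kidney varied from library to library. Of 9 matched genes of the exocrine pancreas, 6 were higher and 2 lower in both ovary-bearing pools without overlap, beside 17.9% and 20.5% of all genes, and 0 were called. prss1, a trypsin gene, stood at 6.96 CPM in null 6 and 5.50 CPM in wild type 2, against 2.37, 2.17 and 2.68 CPM in null 5, wild type 1 and wild type 3. ela2l, an elastase gene, had the opposite order, at 4.71 CPM in null 6 and 17.8 CPM in wild type 2, against 22.7, 24.9 and 39.0 CPM in null 5, wild type 1 and wild type 3. Skeletal muscle genes had 0 of 7 called. The muscle creatine kinase gene ckma stood at 46.9 CPM in null 6 and 4.57 CPM in wild type 2, against 40.6, 51.6 and 56.8 CPM in null 5, wild type 1 and wild type 3, so wild type 2 was low here as it was for heart genes.

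Nephron genes followed null 5 and not the pools. The summed level of 19 tubule and duct genes was 620 CPM in null 6 and 862 CPM in wild type 2, against 4858 CPM in null 5, 1029 CPM in wild type 1 and 147 CPM in wild type 3. CUBN, an endocytic receptor gene of the proximal tubule, stood at 70.5 CPM in null 6 and 31.3 CPM in wild type 2, against 675, 99.7 and 0.832 CPM in null 5, wild type 1 and wild type 3. Of 16 multiciliated cell genes, 7 were lower without overlap in the ovary-bearing pools, beside 20.5% of all genes, and of 13 glomerulus genes 2 were, a share below that of all genes. The 7 included RSPH9, a gene of the motile cilium, with 0.267 CPM in null 6 and 0.265 CPM in wild type 2, against 1.65, 2.26 and 0.869 CPM in null 5, wild type 1 and wild type 3. Of 19 T and natural killer-like genes, 6 gut genes, 7 adipose genes and 9 RUNX and GATA2 genes, 0 were called in either direction.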
